A study of Mus musculus with 8 samples.

Results

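The peaks described here are the accessible sites at the Myc gene and in a distal cluster of sites downstream of it, 27 of 134473 peaks in a table of bulk ATAC-seq counts. They were chosen by position alone. In the mouse build mm9 the window around Myc held 5 peaks, spread over chr15:61814922-61822892. The 220 kb window of the distal cluster held 22, spread over chr15:63479229-63603383. Distances below are from peak midpoints to the start of Myc, taken as base 61816900. Myc is read toward higher coordinates, so positive distances lie downstream.

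Myc encodes a basic helix-loop-helix transcription factor that pairs with Max on E-box DNA and drives cell growth, ribosome production and division. In blood stem cells it governs the balance between self-renewal and differentiation. Much of its transcription in blood progenitors depends on a far downstream group of enhancers, the blood enhancer cluster. Its separate modules are used to different degrees in different blood lineages, and mice without the cluster lose much of their Myc expression in stem and progenitor cells.

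ATAC-seq marks open DNA by inserting sequencing adapters with the Tn5 transposase. It was run by the Omni-ATAC procedure on sorted bone marrow cells of C57BL/6 mice aged 8 to 12 weeks, 500 cells per library. All cells were MPP2, multipotent progenitors biased toward megakaryocytes and red cells, sorted from the LSK fraction (cells without lineage markers but with Sca1 and Kit) as Flt3-, CD150+ and CD48+. One group of 4 libraries was Vwf+Gata1+ and the other group of 4 was Vwf-Gata1+, so both shared Gata1, a factor of the erythroid and megakaryocyte lineages, while Vwf, which encodes von Willebrand factor, set them apart. The labels do not say how Vwf and Gata1 were detected in the sort, or whether each library is another animal. P-values here measure the spread between these libraries alone, which may be technical. In bulk libraries, fewer cells open at a site and less opening per cell cannot be told apart. Peaks at Vwf and Gata1 were not analysed here, and no peak was assigned to an exon, intron or UTR.

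Libraries held between 4628997 and 7753538 counts in peaks. The strongest 1% of all peaks took the lowest share of counts in replicate 1 of each group. It was 10.8% in Vwf+Gata1+ and 10.2% in Vwf-Gata1+ cells, against 11.1% to 12.0% in the other libraries. The same 2 libraries had the lowest signal at several strong peaks below. What part this share has in those values was not tested.

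Accessibility was concentrated at both ends of the region. Between the windows lie 1650 kb with 55 peaks, or 3.33 per 100 kb, against 10 per 100 kb in the cluster window. Of the 55, 34 lay within 300 kb of the start of Myc and 5 lay beyond 1600 kb. The longest stretch without a peak was 287.6 kb. In the GRCm38.p6 gene table the next gene after Myc is Pvt1, a long noncoding RNA gene, and the next protein-coding genes are Gsdmc, Gsdmc2 and Gsdmc3, of the gasdermin C family. The 16 genes annotated between Myc and Gsdmc are 9 long noncoding RNAs, 4 pseudogenes, 1 transcribed pseudogene, 1 snoRNA and 1 snRNA. The number of peaks in the cluster was not unusual: of 9697 windows of 220 kb with at least 1 peak, 28.3% held 21 or more, the number of cluster peaks with a midpoint in the window.

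**Figure D1:**
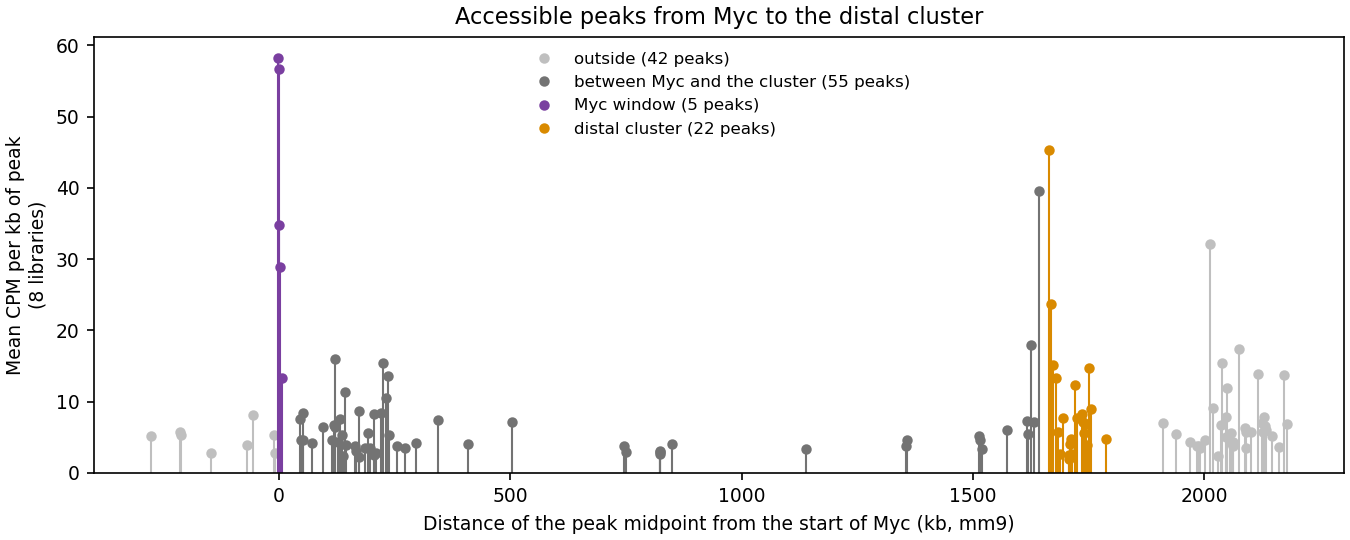
Mean signal of each peak in CPM per kb of peak width over 8 libraries (vertical axis) against its distance from the start of Myc (horizontal axis, kb). The highest points stand at Myc and at the near edge of the cluster, 1663 kb downstream, with few peaks between 300 and 1500 kb.

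The strongest peak of the Myc window covered the start of the gene (chr15:61816285-61817462, 1178 bp). It had 57.6, 71.3, 72.0 and 65.8 CPM (counts scaled to a common library size, after edgeR's TMM factors) in replicates 1 to 4 of Vwf+Gata1+ cells, and 60.6, 70.3, 67.7 and 69.0 CPM in those of Vwf-Gata1+ cells. The groups overlapped almost fully, and replicate 1 was lowest in both. Means were 66.7 ± 6.67 and 66.9 ± 4.31 CPM (SD over 4 libraries each), and the log2 fold change was -0.01 ± 0.09 (SE; Vwf+Gata1+ minus Vwf-Gata1+ here and throughout; edgeR adjusted p = 0.993). The 95% interval of the fold, from 0.878 to 1.12, does not include a change of 1.5-fold in either direction.

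Immediately upstream lay a pair of smaller peaks. The peak 1.8 kb upstream (chr15:61814922-61815288) had 21.6, 22.0, 21.3 and 21.1 CPM in Vwf+Gata1+ cells and 17.8, 19.8, 24.8 and 22.8 CPM in Vwf-Gata1+ cells. The Vwf+Gata1+ values lay inside the wider range of the other group, with a log2 fold change of 0.02 ± 0.12 (SE; adjusted p = 0.988, edgeR). The peak 0.89 kb upstream (chr15:61815893-61816135) had 8.96, 9.76, 9.86 and 8.48 CPM in Vwf+Gata1+ cells and 7.71, 7.23, 7.80 and 7.73 CPM in Vwf-Gata1+ cells. Here the 4 Vwf+Gata1+ libraries lay above the 4 others. The log2 fold change of 0.27 ± 0.17 (SE; unadjusted p = 0.108, adjusted p = 0.812, edgeR) did not pass.

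Downstream of the start were 2 more. The peak at 1.7 kb (chr15:61818264-61818894), within the span of the gene, had 13.8, 19.5, 19.0 and 19.8 CPM in Vwf+Gata1+ cells and 17.6, 18.8, 20.1 and 17.4 CPM in Vwf-Gata1+ cells. Only replicate 1 of Vwf+Gata1+ cells left the range of the other group, and the log2 fold change was -0.04 ± 0.13 (SE; adjusted p = 0.983, edgeR). The peak at 5.8 kb (chr15:61822556-61822892), past the end of the gene at about base 61821900, was the weakest. It had 3.69, 2.81, 4.81 and 5.89 CPM against 2.22, 6.61, 5.07 and 4.82 CPM, and its groups overlapped widely (log2 fold change -0.09 ± 0.27, SE; adjusted p = 0.981, edgeR).

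**Figure D2:**
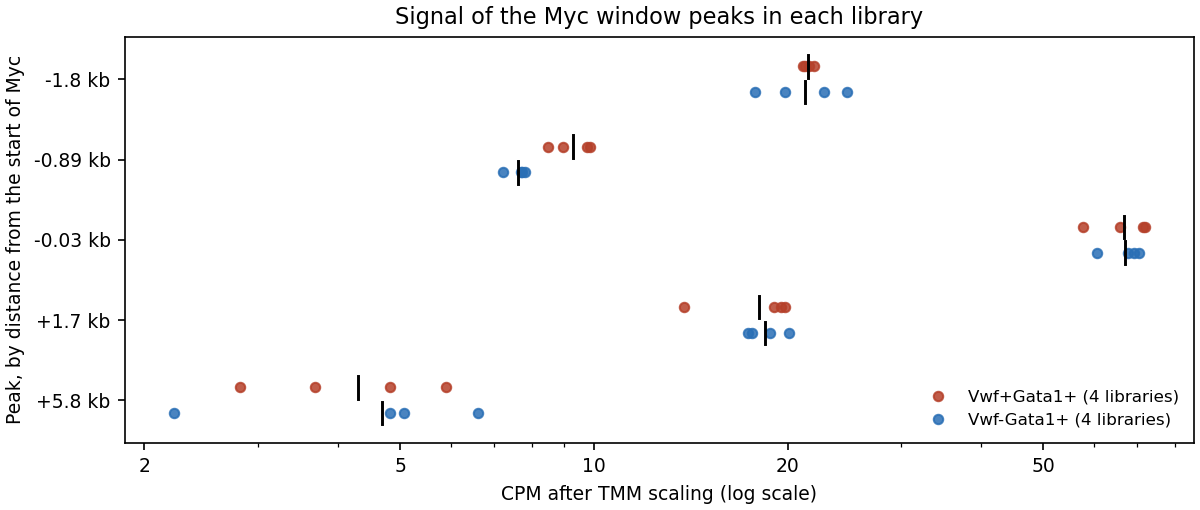
CPM of each library (horizontal log axis) at the 5 Myc window peaks, named by distance from the start of Myc, with group means as black ticks. The groups separate only at the peak 0.89 kb upstream, where Vwf+Gata1+ libraries range from 8.48 to 9.86 CPM and Vwf-Gata1+ libraries from 7.23 to 7.80 CPM.

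In the Myc window 0 of 5 peaks had an adjusted p under 0.05 by the quasi-likelihood test of edgeR, where 0.0144% of 97040 tested peaks did. At an unadjusted p under 0.05 there were also 0 of 5, against 6.72% of all tested peaks. DESeq2 likewise gave 0 of 5 at either threshold, where 0.00824% of all tested peaks passed after adjustment and 3.47% before it. Groups did not overlap at 1 of 5 peaks, against 3.88% of all tested peaks in either direction and 1.81% in this one. The median log2 fold change was -0.01, against 0.00389 over all tested peaks, and the 95% intervals of all 5 lay within 2-fold in either direction.

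The distal cluster was led by its first peak, 1663 kb downstream of the start of Myc (chr15:63479229-63480639, 1411 bp). It straddles the edge of the window, with 640 bases inside. It had 53.2, 67.7, 80.9 and 58.9 CPM in Vwf+Gata1+ cells and 51.2, 60.9, 68.3 and 70.2 CPM in Vwf-Gata1+ cells. Replicate 1 was lowest in both groups and replicate 3 of Vwf+Gata1+ cells highest of all, and the groups overlapped. Means were 65.2 ± 12.1 and 62.6 ± 8.60 CPM (SD over 4 libraries each), and the log2 fold change was 0.05 ± 0.11 (SE; adjusted p = 0.973, edgeR, fold interval 0.886 to 1.21). Summed over libraries, this peak held 38.1% of all cluster counts.

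Per kb of width, this distal peak came close to the gene's own start in signal but stayed below it. It had 45.3 ± 6.94 CPM per kb, against 56.7 ± 4.41 at the peak over the start of Myc (SD over 8 libraries). In that measure the start of Myc was the higher in 8 of 8 libraries. In CPM, not divided by width, the distal peak was higher in replicate 3 of Vwf+Gata1+ cells (80.9 against 72.0). It was also higher in replicates 3 (68.3 against 67.7) and 4 (70.2 against 69.0) of Vwf-Gata1+ cells, and lower in the other libraries. Among all 134473 peaks, 98.5% had as low a signal per kb as this cluster peak or lower, and 99.4% as low as the peak over the start. Its spread was larger: the coefficient of variation over 8 libraries was 15.3%, where counting alone gives 5.08%, against 7.78% and 4.97% at the start of Myc.

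The next 3 peaks of the cluster had midpoints within 18 kb of the first. The narrow peak at 1667 kb (chr15:63484224-63484474) had 4.87, 6.00, 4.58 and 5.32 CPM in Vwf+Gata1+ cells and 5.36, 7.69, 6.63 and 7.15 CPM in Vwf-Gata1+ cells. The groups touched through replicate 1 of Vwf-Gata1+ cells (log2 fold change -0.36 ± 0.20, SE; unadjusted p = 0.0769, adjusted p = 0.781, edgeR). The widest peak, at 1673 kb (chr15:63488987-63490542, 1556 bp), had 16.6, 24.6, 23.6 and 24.4 CPM against 19.5, 26.0, 26.5 and 27.0 CPM. In both groups replicate 1 stood well below the other 3 libraries, and the log2 fold change was -0.16 ± 0.13 (SE; adjusted p = 0.875, edgeR). The peak at 1680 kb (chr15:63496529-63497455) had 11.6, 13.3, 10.8 and 10.5 CPM against 11.8, 14.3, 11.3 and 15.6 CPM, with overlapping groups (log2 fold change -0.20 ± 0.15, SE; adjusted p = 0.855, edgeR).

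Farther downstream, open peaks stood apart among weak ones. The peak at 1719 kb (chr15:63535769-63536738) had 10.3, 11.8, 12.1 and 9.92 CPM in Vwf+Gata1+ cells and 11.0, 14.5, 11.7 and 14.6 CPM in Vwf-Gata1+ cells, which overlap (log2 fold change -0.24 ± 0.15, SE; adjusted p = 0.816, edgeR). The peak at 1751 kb (chr15:63567859-63568370) had 7.64, 6.19, 7.79 and 8.20 CPM against 8.89, 6.92, 10.5 and 4.38 CPM. The Vwf-Gata1+ libraries spread over more than the whole range of the other group there (log2 fold change -0.02 ± 0.20, SE; adjusted p = 0.994, edgeR). The peak at 1755 kb (chr15:63572012-63572625) had 4.74, 5.07, 4.58 and 4.89 CPM against 6.40, 7.38, 5.27 and 5.40 CPM. All 4 Vwf+Gata1+ libraries were lower, but the difference did not pass (log2 fold change -0.35 ± 0.20, SE; unadjusted p = 0.0946, adjusted p = 0.800, edgeR).

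An unadjusted p under 0.05 was reached at 3 weak peaks, none of which passed after adjustment. The peak at 1735 kb (chr15:63551719-63551992) had 1.45, 2.06, 1.15 and 2.01 CPM in Vwf+Gata1+ cells, from 5 to 14 counts. In Vwf-Gata1+ cells it had 2.61, 2.61, 3.12 and 3.06 CPM, from 16 to 21 counts, all above the first group. Its log2 fold change was -0.74 ± 0.30 (SE; unadjusted p = 0.019, adjusted p = 0.646, edgeR), with a fold interval from 0.391 to 0.914. The peak at 1740 kb (chr15:63556406-63556678) had 1.58, 0.938, 0.229 and 1.44 CPM against 2.22, 2.15, 1.95 and 1.61 CPM, again without overlap. Replicate 3 of Vwf+Gata1+ cells, the shallowest library, held 1 count there. The log2 fold change was -0.79 ± 0.38 (SE; unadjusted p = 0.044, adjusted p = 0.732, edgeR), the most negative of the cluster, and -0.55 (unadjusted p = 0.145, edgeR) without that library.

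The most positive value of the cluster was at 1687 kb (chr15:63503486-63504286), an 801 bp peak with a low signal per kb. It had 3.16, 2.81, 1.83 and 2.59 CPM in Vwf+Gata1+ cells and 1.57, 1.69, 1.37 and 2.19 CPM in Vwf-Gata1+ cells. The groups overlapped through one library of each. The log2 fold change was 0.62 ± 0.31 (SE; unadjusted p = 0.0497, adjusted p = 0.743, edgeR).

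**Figure D3:**
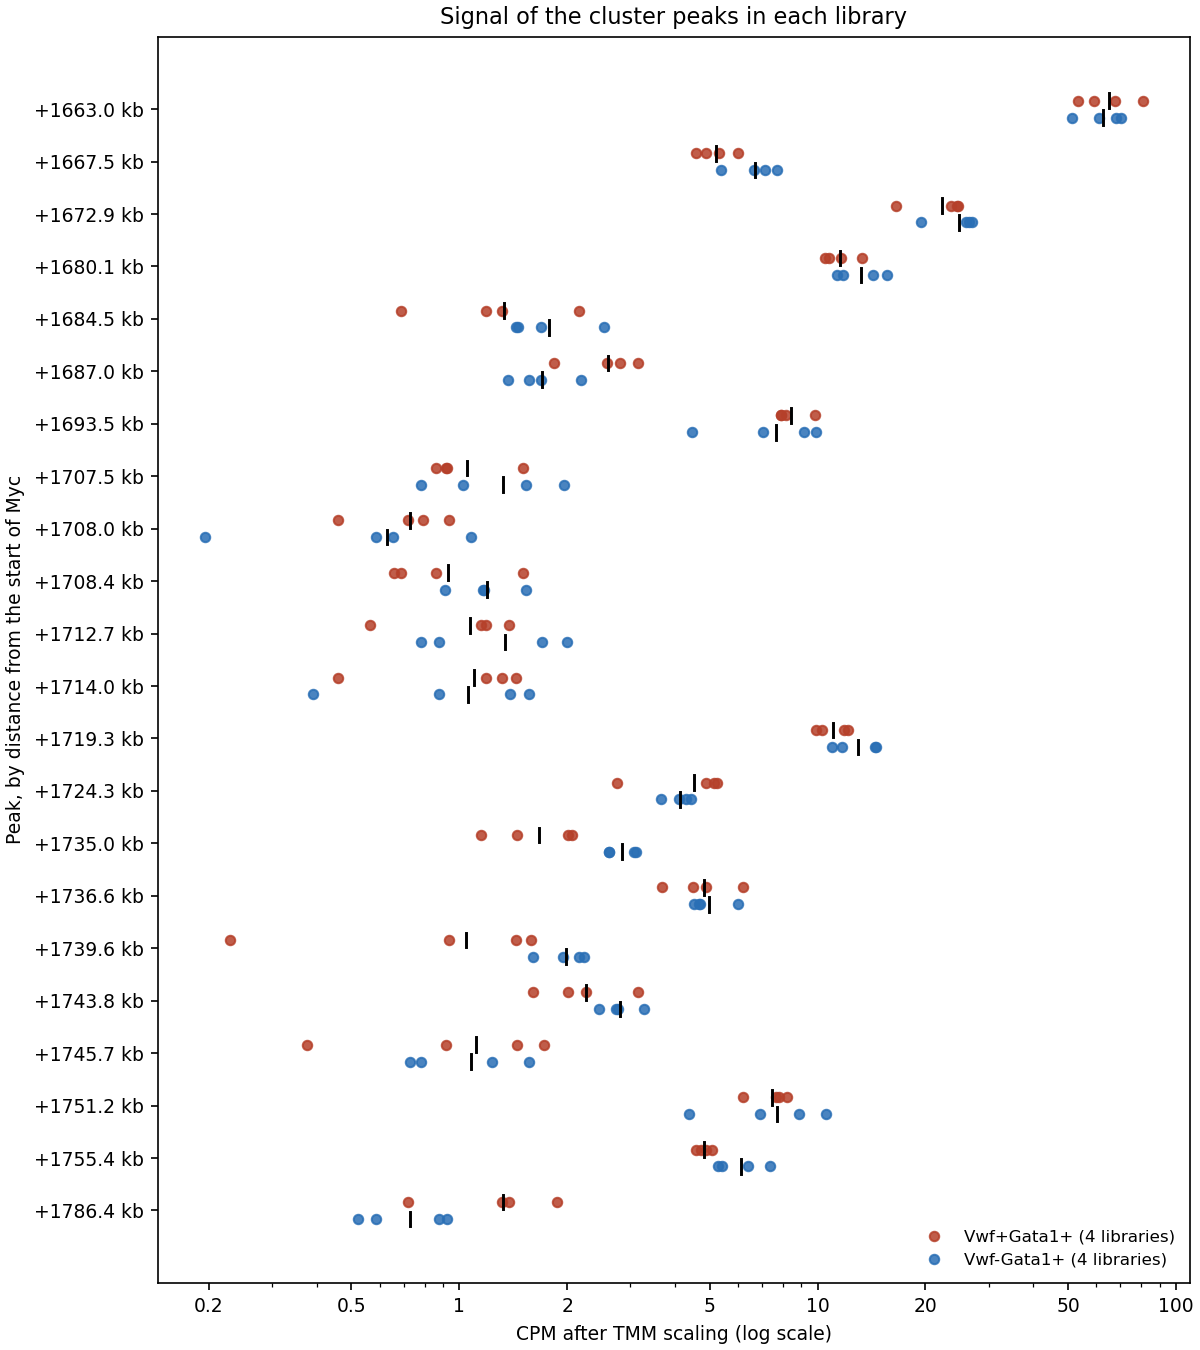
CPM of each library (horizontal log axis) at the 22 cluster peaks, named by distance from the start of Myc, with group means as black ticks. Signal spans from 0.195 to 80.9 CPM, and most groups overlap. The Vwf+Gata1+ libraries lie wholly below the others at the tested peaks at 1735, 1740 and 1755 kb.

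The other tested cluster peaks, at 1694, 1724, 1737 and 1744 kb, had log2 fold changes between -0.28 and 0.16. The remaining 8 of 22 cluster peaks had too few counts to be tested, with at most 15 counts in any library. These were the peaks at 1684, 1713, 1714, 1746 and 1786 kb and 3 neighbours near 1708 kb. Their summed counts ran from 30 to 67 per Vwf+Gata1+ library and from 37 to 79 per Vwf-Gata1+ library. The last peak, at 1786 kb (chr15:63603167-63603383), left 96.6 kb of the window without any peak. It had 0.719 to 1.88 CPM in Vwf+Gata1+ cells and 0.523 to 0.923 CPM in Vwf-Gata1+ cells, from 3 to 10 counts.

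In the cluster 0 of 14 tested peaks had an adjusted p under 0.05 by edgeR, against 0.0144% of all tested peaks. At an unadjusted p under 0.05 there were 3 of 14, 1 positive (3.52% of all tested peaks) and 2 negative (3.2%). Without replicate 1 of both groups, the peak at 1740 kb had too few counts to be tested. The log2 fold change was then -0.70 at 1735 kb (unadjusted p = 0.0548, edgeR) and 0.46 at 1687 kb (unadjusted p = 0.221, edgeR). DESeq2 gave 0 of 14 at an unadjusted p under 0.05, and 0 passed after adjustment, with no adjusted p given for the peak at 1740 kb. Groups did not overlap at 3 of 14, all lower in Vwf+Gata1+ cells, against 2.07% of all tested peaks in that direction. The filter keeps a peak with enough counts in 1 group alone. The peaks at 1735 and 1740 kb had 16 to 21 and 10 to 17 counts in Vwf-Gata1+ libraries. In Vwf+Gata1+ libraries they had 5 to 14 and 1 to 12. Both could thus enter the tested set through the group where they are high, so their separation carries no weight. Log2 fold changes were negative at 10 of 14 (71.4%), against 49.3% of all tested peaks, and their median was -0.18, against 0.00389. With no filter, 14 of 22 cluster peaks were negative and 8 positive, with a median of -0.17, against 0.0061 over all peaks. Neighbouring peaks share libraries and are not replicates of each other, so these counts describe the cluster and carry no test. The 95% interval lay within 2-fold in either direction at 11 of 14 cluster peaks. At the other 3, the peaks at 1687, 1735 and 1740 kb, it reached past 2-fold on one side.

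**Figure D4:**
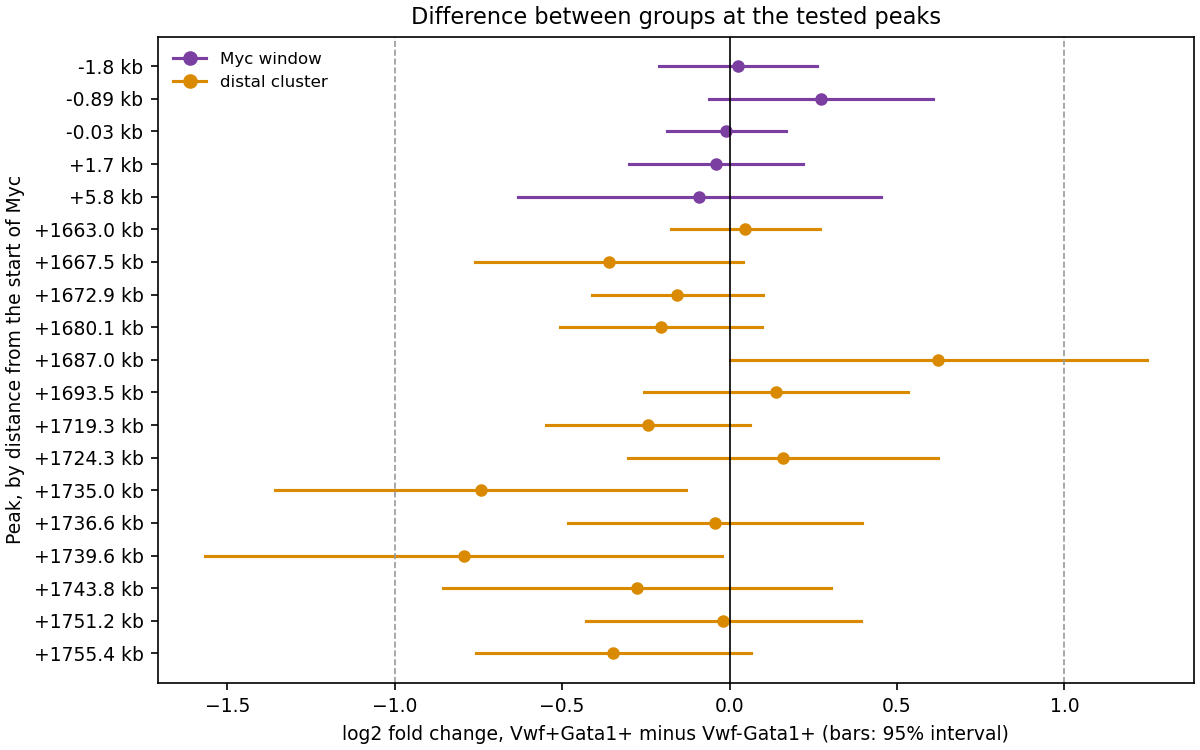
Log2 fold change (points) and its 95% interval (bars) from edgeR at the 19 tested peaks, in order of distance from the start of Myc. Dashed lines mark 2-fold. The Myc window values lie between -0.09 and 0.27, and 10 of 14 cluster values are negative.

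Windows of fixed size over the genome gave sums with more counts than single peaks. The 100 kb window around Myc (chr15:61800001-61900000) sums 12 peaks, of which 5 are those of the Myc window. It had 134.1 ± 5.78 CPM in Vwf+Gata1+ and 135.3 ± 4.47 CPM in Vwf-Gata1+ cells (log2 fold change -0.01 ± 0.05, SE; adjusted p = 0.966, edgeR). The window with 17 cluster peaks (chr15:63500001-63600000) had 56.8, 55.0, 48.4 and 55.6 CPM in Vwf+Gata1+ cells and 62.0, 60.5, 57.9 and 56.5 CPM in Vwf-Gata1+ cells. Only replicate 4 of Vwf-Gata1+ cells lay within the range of the other group. Its log2 fold change was -0.13 ± 0.07 (SE; unadjusted p = 0.0877, adjusted p = 0.658, edgeR), with a fold interval from 0.825 to 1.01. The window before it (chr15:63400001-63500000), whose 9 peaks include the first 4 of the cluster, had a log2 fold change of -0.07 ± 0.07 (SE; adjusted p = 0.823, edgeR). None of these 3 windows reached an unadjusted p under 0.05, against 8.2% of 16414 windows, and 0% of all windows passed the adjusted threshold. No other tool was run on windows.

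Of the 10 kb windows that hold these peaks 13 were tested, and 0 passed in edgeR's test, against 0.0107% of 65373. The last cluster peak, at 1786 kb, lay in no tested window of either size. One reached an unadjusted p under 0.05, against 7.08%. It holds the peaks at 1735, 1737 and 1740 kb (chr15:63550001-63560000), with 7.35 ± 1.74 CPM in Vwf+Gata1+ and 9.60 ± 0.624 CPM in Vwf-Gata1+ cells (log2 fold change -0.36 ± 0.17, SE; unadjusted p = 0.0446, adjusted p = 0.698, edgeR). That window reuses the counts of the peaks at 1735 and 1740 kb, so it adds no separate support. The window over the start of Myc (chr15:61810001-61820000) had a log2 fold change of 0.01 ± 0.07 (SE; adjusted p = 0.991, edgeR).

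The sums over all peaks of each region are given as descriptions, without a test. The Myc window held 106, 125.4, 127 and 121.2 CPM in Vwf+Gata1+ cells and 106, 122.7, 125.4 and 121.7 CPM in Vwf-Gata1+ cells, lowest in both replicate 1 libraries. The cluster held 144.7, 171.5, 172.4 and 157.6 CPM against 150.3, 172.7, 174.5 and 179.7 CPM, again lowest in replicate 1. Dividing one sum by the other removes the scaling of each library. The cluster held 1.37, 1.37, 1.36 and 1.30 times the Myc window sum in Vwf+Gata1+ cells and 1.42, 1.41, 1.39 and 1.48 times in Vwf-Gata1+ cells. The ratio was lower in all 4 Vwf+Gata1+ libraries, with means of 1.35 ± 0.033 and 1.42 ± 0.037 (SD, n = 4 per group). The nearest values were 1.37 and 1.39, and the cluster sums themselves overlapped between groups. How often such a ratio separates the groups elsewhere in the genome was not measured, so no group difference is drawn from it.

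**Figure D5:**
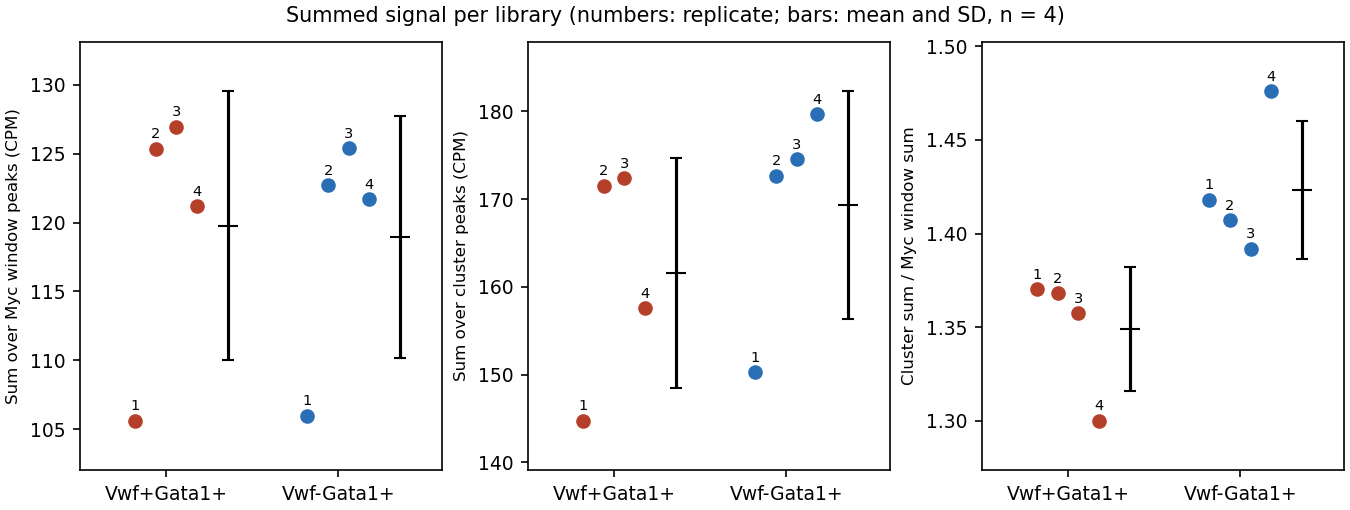
Sum of CPM over the 5 Myc window peaks (left), over the 22 cluster peaks (middle) and their ratio (right) in each library, numbered by replicate, with mean and SD bars. The axes do not start at 0. Sums are lowest in replicate 1 of both groups, and ratios range from 1.30 to 1.37 in Vwf+Gata1+ and from 1.39 to 1.48 in Vwf-Gata1+ cells. The ratios were not tested and have no background beside them.

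Shares within each region do not depend on the scaling. Of the Myc window counts, the peak over the start of Myc took 55.6% ± 1.37 in Vwf+Gata1+ libraries and 56.3% ± 1.57 in Vwf-Gata1+ libraries (SD, n = 4 per group). The first cluster peak took 40.2% ± 4.67 and 36.9% ± 2.59 of the cluster counts, with the highest share, 46.9%, in replicate 3 of Vwf+Gata1+ cells. The peak at 1673 kb took 13.8% ± 1.70 and 14.6% ± 1.07. At the first cluster peak and the peak at 1673 kb the groups' shares overlapped. The peak at 1735 kb took 1.04% ± 0.274 and 1.69% ± 0.120, with every Vwf+Gata1+ library below the others. It was named for its unadjusted p in the same counts, so its share adds no separate support. The shares of the peak at 1667 kb did not overlap either, with 2.66% to 3.50% in Vwf+Gata1+ and 3.57% to 4.45% in Vwf-Gata1+ libraries. In CPM the groups overlapped at that peak. Other peaks went the opposite way, with groups apart in CPM but overlapping in share. These were the peak 0.89 kb upstream of Myc, in its share of the Myc window counts, and the cluster peaks at 1740 and 1755 kb. Shares at 1740 kb were 0.133% to 1.09% in Vwf+Gata1+ and 0.894% to 1.48% in Vwf-Gata1+ libraries. At 1755 kb they were 2.66% to 3.28% and 3.01% to 4.27%. How often such shares separate the groups elsewhere in the genome was not measured, so no group difference is drawn from them.

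Ordered by signal per kb, the 27 peaks ran from 58.3 ± 5.57 CPM per kb at the peak 1.8 kb upstream of Myc to 1.90 ± 0.774 near 1708 kb (SD over 8 libraries). All 5 Myc window peaks and 12 of 22 cluster peaks lay above the median of all peaks, 6.73 CPM per kb. The top of the order was the peak 1.8 kb upstream, followed by the peak over the start (56.7), the first cluster peak (45.3) and the peak 0.89 kb upstream (34.7). The peaks at 1.7 kb (28.9) and 1667 kb (23.7) came next. Of the 26 pairs of neighbours in this order, the higher peak led in 8 of 8 libraries in only 5. The leading pair did not differ beyond their spread, with each higher in 4 of 8 libraries. From 8.90 CPM per kb downward no pair of neighbours was in the same order in every library.

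Likeness to the peak over the start of Myc was measured as the root mean square difference in log2 CPM over the 8 libraries, after centring each peak on its own mean. Of the cluster peaks the closest were those at 1663, 1673 and 1719 kb, at 0.127, 0.142 and 0.147. They ranked 6785, 9656 and 10509 among 97039 tested peaks, and the measure favours strong peaks, which have less counting noise. The closest peaks of the whole table were chr17:5327305-5328438 (0.0258), chr7:75333754-75335070 (0.0279) and chr6:73178231-73179132 (0.0284).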

How the data were processed

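The authors deposited 1 table of raw counts per peak for 8 libraries. The build mm9 is named per the submitters' processing notes, as are MACS2, Picard, SAMtools, Bowtie2, FastQC and Trim Galore, with no version. For merging of peaks, duplicates and the shift of read ends, nothing was found in the labels. A missing shift would move cut sites by a few bases, far less than these peaks are wide.

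Peaks were kept by edgeR's filterByExpr (minimum count 10, minimum total 15), which left 97040 of 134473, or 72.2%, and scaled by TMM. edgeR's quasi-likelihood test (robust) was fitted to all of them, and Benjamini-Hochberg adjustment ran over all tested peaks at a threshold of 0.05. Standard errors are absolute log2 fold changes divided by the root of F. CPM of all peaks used the same scaled library sizes. Fixed windows of 100 and 10 kb, each peak placed by its midpoint, were fitted likewise. Log2 CPM for likeness used a prior count of 2.

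Named in full are all Myc window peaks, the 8 cluster peaks with the highest CPM per kb, the largest positive and negative log2 fold changes, and members with an unadjusted p under 0.05. Members, lists and rules were chosen with earlier results of these data known. Alternatives were RLE and total count scaling, no filter, a CPM of at least 1 in 4 libraries, DESeq2, dispersions that are not robust, the replicate number as a block, an adjusted p of 0.1, and each library left out in turn. Leaving out replicate 1 of both groups was added after the data were seen. The position of Myc came with the definition of the windows, since no mm9 annotation was used here, and the GRCm38.p6 table served for gene order only. Fits ran in R 4.3.3 with edgeR 4.0.16 (on limma 3.58.1) and DESeq2 1.42.0. Tables came from Python 3.11.15 with pandas 2.3.3, and plots from matplotlib 3.10.9.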

Additional observations from a re-analysis of the deposited data

Results flagged for a closer look

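In 60 groups of 4 values (27 peaks, both sums and their ratio in each group), 8 had 1 library far from the other 3, measured as its gap to the nearest over the whole range. Chance flags about 1 in 20 such groups, and groups that share a library are not independent. Replicate 1 was the low library at 3 of them. In Vwf+Gata1+ cells it had 13.8 CPM at the peak 1.7 kb downstream of the start of Myc, where the others had 19.0 to 19.8. At the cluster peak at 1673 kb it had 16.6 CPM in Vwf+Gata1+ cells, where the others had 23.6 to 24.6, and 19.5 CPM in Vwf-Gata1+ cells, where the others had 26.0 to 27.0.

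Replicate 3 of Vwf+Gata1+ cells, the library with the fewest counts, had 9.86 CPM at the cluster peak at 1694 kb, above the 7.88 to 8.17 of the others. It had 2.75 CPM at the peak at 1724 kb, below the 4.89 to 5.25 of the others. Replicate 2 of Vwf-Gata1+ cells had 7.23 CPM at the peak 0.89 kb upstream of Myc (others 7.71 to 7.80) and 6.00 CPM at the peak at 1737 kb (others 4.52 to 4.70). Replicate 2 of Vwf+Gata1+ cells had 1.5 CPM at the untested peak at 1707.5 kb (others 0.863 to 0.922). These are few counts, 8 in that library against 7, 4 and 6 in replicates 1, 3 and 4.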

How the results depend on the processing

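The count of called peaks stayed at 0 of the Myc window and 0 of the cluster under each alternative run. DESeq2 and an adjusted p of 0.1 were among these. Of the tested windows that hold these peaks, 0 passed in any fit run on windows. The lowest adjusted p of a single peak in any alternative was 0.339 (edgeR with the replicate number as a block, peak at 1735 kb). Of 303 values of the 19 tested peaks under alternatives, 22 changed sign, at 8 peaks, and of 192 values of windows 15 did. With the replicate block the peak at 1751 kb had a log2 fold change of 0.0032, and with total count scaling the 10 kb window at the start of Myc had -0.0061. Counting only tested peaks, the ratio of the cluster to the Myc window was 1.28 in Vwf+Gata1+ and 1.35 in Vwf-Gata1+ cells, by construction.

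Without replicate 1 of both groups the log2 fold change was -0.0589 at the peak 1.8 kb upstream of Myc, 0.0105 at the start, 0.0635 at 1.7 kb and 0.0705 at 1751 kb. It was -0.70 at 1735 kb (unadjusted p = 0.0548, edgeR), and the peak at 1740 kb was not tested in that fit. Leaving out 1 library at a time gave ranges of log2 fold change across 0 for these peaks: -0.0553 to 0.0999 (1.8 kb upstream), -0.0561 to 0.0587 (start), -0.10 to 0.0845 (1.7 kb), -0.35 to 0.14 (5.8 kb), -0.0644 to 0.14 (1663 kb), -0.0478 to 0.30 (1694 kb), -0.17 to 0.0574 (1737 kb) and -0.22 to 0.15 (1751 kb). It did so for these windows too: -0.0352 to 0.0211 (100 kb, 61800001), -0.12 to 0.0015 (100 kb, 63400001), -0.0286 to 0.0658 (10 kb, 61810001), -0.34 to 0.13 (61820001), -0.0659 to 0.13 (63470001), -0.0508 to 0.30 (63510001) and -0.22 to 0.0463 (63560001). The peak at 1735 kb ranged from -0.85 to -0.64, and the peak at 1740 kb from -1.05 to -0.55.

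Over alternatives an unadjusted p under 0.05 was met in 13 of 16 at 1735 kb, 9 of 15 at 1740 kb and 7 of 16 at 1687 kb. These peaks were named for that p in the main fit, and the alternatives reuse most of the same libraries. The tally is therefore no further support. DESeq2 gave unadjusted p = 0.0507, 0.0832 and 0.109 at these peaks. Of all peaks, 14 were called; leaving out 1 library gave from 3 (without Vwf-Gata1+ replicate 1) to 76 (without Vwf+Gata1+ replicate 1), leaving out both replicate 1 libraries 35, total count scaling 27 and DESeq2 8. The replicate block called 511, or 0.527% of all tested peaks, and 0 of the 19 tested here. No label says that a number pairs libraries, and the correlation of same-numbered libraries, after removing group means, was 0.301, 0.163, 0.074 and 0.0103 for numbers 1 to 4. Own number gave the best match in 5 of 8, which is a hint from the data only. Median standard errors were 0.20 for the cluster, 0.13 for the Myc window and 0.23 over all tested peaks (log2).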

Other observations

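Open chromatin near the cluster did not start at the edge of the window. In the 50 kb before the first cluster peak lay 5 tested peaks, a set chosen after its values were seen. The nearest, 1642 kb downstream of the start of Myc (chr15:63458380-63458591), is only 212 bp wide and had 39.5 CPM per kb, between the first and second cluster peaks in that measure. It had 9.06 ± 2.55 CPM in Vwf+Gata1+ and 7.69 ± 0.837 CPM in Vwf-Gata1+ cells (SD over 4 libraries; adjusted p = 0.896, edgeR). The peak at 1626 kb (chr15:63442482-63443124) had 10.3 ± 1.77 and 12.7 ± 1.92 CPM, a log2 fold change of -0.33 ± 0.16 (SE; unadjusted p = 0.0434, adjusted p = 0.731, edgeR). The peaks at 1617, 1619 and 1632 kb had log2 fold changes of 0.04, -0.25 and -0.32.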
